A study of Mus musculus with 90 samples.

Results

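The claudin and connexin families were followed as 52 genes, 32 claudins and 20 connexins, among the 20414 genes listed for 90 RNA libraries of mouse tissues. A gene belonged to the set if its mouse symbol was Cldn with a number, or Gja, Gjb, Gjc, Gjd or Gje with a number. No measured value entered that rule, though the families were chosen with earlier results of these data known. C57BL/6 females (C57BL/6J in the study's methods), 10 weeks old by the sample labels (the methods give a younger age), were assigned to estrus or diestrus from vaginal smears stained with methylene blue. Each phase was represented by 3 libraries from each of 15 tissues: aorta, vein, brown fat (BAT), white fat (WAT), heart, muscle, liver, kidney, duodenum, stomach, spleen, cerebrum, hypothalamus, ovary and uterus. By the study's account the 15 tissues of a phase were taken from the same 3 mice, so libraries of different tissues share animals, and no source says that a replicate number stands for the same mouse in every tissue. All values are FPKM, fragments per kilobase of transcript scaled by the size of the library, and since they are divided by length they can be set side by side between genes. The levels are of mRNA in whole pieces of tissue, so fewer cells of a type and less RNA per cell cannot be told apart.

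Claudins are membrane proteins of the tight junction, the belt that closes the space between neighbouring epithelial or endothelial cells. Some tighten that seal and others form pores through it for ions or water, so the mix of claudins sets what an epithelium lets through. Connexins build gap junctions, channels that join the cytoplasm of adjacent cells and pass ions and small metabolites. They are sorted by sequence into alpha (Gja), beta (Gjb), gamma (Gjc), delta (Gjd) and epsilon (Gje) groups. Gap junctions couple heart muscle cells electrically, link granulosa cells with each other and with the oocyte, and connect hepatocytes and astrocytes into networks.

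Several libraries stood apart from the others of their tissue. In BAT estrus replicate 3, 12048 genes were listed at 0, against 2404 to 4820 in the other 89 libraries, and 47 of the 52 members were among them. In duodenum estrus replicate 1, 6 gastric epithelium markers summed to 68590 FPKM, against 0.41 to 27.9 in the other 5. Of these markers, 5 had a mean of at least 1 FPKM in duodenum, and Atp4a had a mean of 0.19. Smooth muscle markers summed to 1695 FPKM in the same library, against 159.4 to 440.3 in the other 5. The 2 oviduct epithelium markers summed to 1623 FPKM in ovary estrus replicate 3 (2.64 to 42.01 in the other 5) and to 2710 in uterus estrus replicate 3 (24.1 to 127.0 in the other 5). In stomach, 5 squamous epithelium markers summed to 4026, 76.4 and 6890 FPKM in the estrus libraries and to 943.0, 285.3 and 9.2 in those of diestrus. In aorta estrus replicate 1, 5 smooth muscle markers summed to 16000 FPKM, against 1630 to 2490 in the other 5. The part of these markers in the results was not tested.

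Of the 52 members, 35 reached a mean of 1 FPKM in some tissue (19 claudins and 16 connexins), and 23 reached 10 FPKM. Cldn5, Cldn12 and Gja1 reached 1 FPKM in all 15 tissues. Among the 17 members that stayed under that level everywhere were Cldn6, Cldn9, Cldn17, Cldn20, Cldn24, Cldn34-ps, Cldn34a, Cldn34b2, Cldn34b3, Cldn34c2, Cldn34c3, Cldn34c4, Cldn34d, Gja10, Gjd3 and Gjd4. None of the 52 was at 0 in all 90 libraries. For 14 members, 9 claudins and 5 connexins, the 6 libraries of the leading tissue were all above every library of the other tissues. The leading tissue was picked from these same values. The share over all genes was not counted, so this count has no such share beside it and describes these members only. The Cldn34c genes are similar copies whose reads could have been split between them. Cldn20 and Gja6 overlap other protein-coding genes, and without strand the reads cannot be told apart, so these values are uncertain. The same holds for Cldn3, Cldn10, Cldn14, Cldn19, Gja5, Gjb2, Gjd2 and Gje1, which overlap noncoding genes in the annotation.

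**Figure D1:**
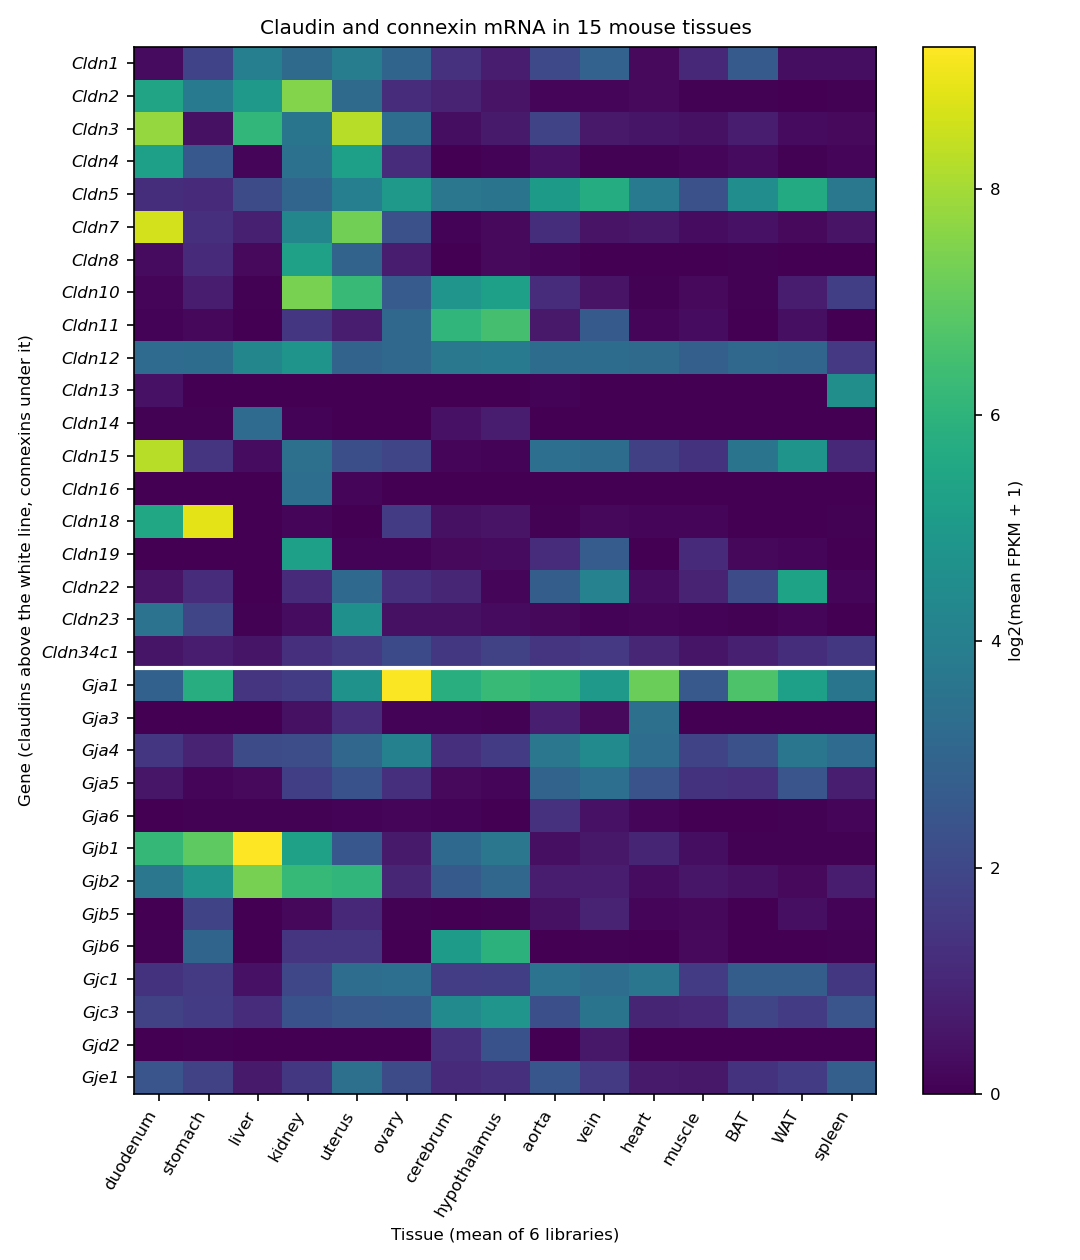
Mean level of members with at least 1 FPKM in some tissue (rows) in the 15 tissues (columns, mean of 6 libraries), as log2(mean FPKM + 1) on the colour scale. Gjb1 in liver (611.6 FPKM) and Gja1 in ovary (581.7 FPKM) have the highest means, and Cldn13, Cldn14 and Cldn16 reach 1 FPKM in 1 tissue each.

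Duodenum and uterus carried the highest summed claudin levels, 1069 and 668.2 FPKM, and shared Cldn3, Cldn4 and Cldn7, claudins of simple epithelia. Cldn7 ran from 156.9 to 465.7 FPKM over the duodenum libraries with a median of 438.1, and in uterus from 91.7 to 200.9. Its lowest duodenum value came from estrus replicate 1, the library with gastric markers. Cldn3, which with Cldn4 is a receptor of the Clostridium perfringens enterotoxin, was highest in uterus (180.2 to 555.5 FPKM, median 287.4) and next in duodenum (93.2 to 309.9), and these ranges overlapped. Liver followed, with 62.5 to 74.9 FPKM. Cldn4 had similar means in duodenum and uterus, 36.2 and 36.1 FPKM. Cldn15, a sodium pore of the small intestine, reached 306.1 ± 101.0 FPKM (SD, n = 6) in duodenum and 26.6 in WAT, its next tissue. Cldn23 was highest in uterus (23.9 FPKM) and next in duodenum (10.5).

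The sequences before Cldn3, Cldn4 and Cldn7 are shown because these claudins had similar levels over the tissues (r of 0.966 for Cldn4 and Cldn7, 0.859 for Cldn3 and Cldn7), those before Cldn18 for its high level in stomach, and that before Cldn5 as the claudin of vessels. RefSeq entries of build GRCm38.p6 held promoter windows for 37 of the 52 members, 49 windows in all. Each line gives the 250 bases before a start, 5′ to 3′ on the strand of the gene. The windows lie at chr5:134985964-134986213 (Cldn3, plus strand), chr5:134946935-134947184 (Cldn4, minus), chr11:69964529-69964778 (Cldn7, plus), chr9:99717268-99717517 and chr9:99710064-99710313 (the 2 starts of Cldn18, minus) and chr16:18776597-18776846 (Cldn5, plus), and none overlaps an annotated exon of its gene. Capitals mark matches, on either strand, to 4 motifs: the E-box CACCTG, bound by Snail and Zeb repressors of epithelial genes, the GC box GGGCGG, the TATA box TATAAA and the grainyhead motif AACCNGTT.
Cldn3: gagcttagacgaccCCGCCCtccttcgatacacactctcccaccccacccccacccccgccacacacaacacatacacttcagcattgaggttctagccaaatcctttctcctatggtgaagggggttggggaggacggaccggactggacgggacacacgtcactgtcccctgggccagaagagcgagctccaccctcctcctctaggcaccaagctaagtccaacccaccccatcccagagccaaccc
Cldn4: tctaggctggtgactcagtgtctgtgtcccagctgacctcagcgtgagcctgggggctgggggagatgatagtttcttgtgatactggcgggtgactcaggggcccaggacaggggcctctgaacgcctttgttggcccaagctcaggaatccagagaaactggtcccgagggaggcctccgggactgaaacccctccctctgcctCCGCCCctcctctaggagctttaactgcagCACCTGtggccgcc
Cldn7: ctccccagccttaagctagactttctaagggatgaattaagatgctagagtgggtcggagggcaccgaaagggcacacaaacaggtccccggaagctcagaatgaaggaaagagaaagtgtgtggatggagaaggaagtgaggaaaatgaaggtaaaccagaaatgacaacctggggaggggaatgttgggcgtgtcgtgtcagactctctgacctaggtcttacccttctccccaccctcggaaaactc
Cldn18, upstream start: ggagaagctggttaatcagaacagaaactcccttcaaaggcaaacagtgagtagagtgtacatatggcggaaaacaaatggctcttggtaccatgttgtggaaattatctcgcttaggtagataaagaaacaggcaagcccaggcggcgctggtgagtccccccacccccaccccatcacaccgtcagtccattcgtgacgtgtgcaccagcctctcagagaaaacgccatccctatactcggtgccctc
Cldn18, downstream start: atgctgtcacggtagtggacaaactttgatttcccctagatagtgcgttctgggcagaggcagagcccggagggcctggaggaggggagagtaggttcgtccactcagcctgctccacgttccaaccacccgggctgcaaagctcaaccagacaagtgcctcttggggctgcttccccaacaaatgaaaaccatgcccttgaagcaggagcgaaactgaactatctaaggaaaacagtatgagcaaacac
Cldn5: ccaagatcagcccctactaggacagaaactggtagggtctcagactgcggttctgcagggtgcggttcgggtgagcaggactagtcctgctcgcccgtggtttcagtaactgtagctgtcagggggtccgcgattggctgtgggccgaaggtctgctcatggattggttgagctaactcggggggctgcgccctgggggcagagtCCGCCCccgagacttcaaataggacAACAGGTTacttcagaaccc
Of the windows shown, an E-box stood before Cldn4 alone, a GC box before Cldn3, Cldn4 and Cldn5, and a grainyhead motif before Cldn5. Cldn7 has another annotated start, whose window overlaps an exon of Cldn7 and is not shown, and that window held 2 E-boxes and 1 GC box. Of all 32851 windows of this length, 17.2% held an E-box, 32.7% a GC box, 12.4% a TATA box and 1.79% a grainyhead motif, and of the 49 windows of members 18.4%, 36.7%, 12.2% and 4.08% did. A match describes letters and not binding.

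In stomach, Cldn18, the tight junction protein of the gastric mucosa, made up 92.1% of the claudin sum. Its 6 values ran from 300.6 to 628.9 FPKM with a median of 505.7. It was at 271.0 FPKM in duodenum estrus replicate 1 and at 0 to 0.06 in the other 5 duodenum libraries, and had a mean of 2.06 in ovary. Among 15226 genes, those with the most similar mean log2(FPKM + 1) over the 15 tissues were Tmprss9, Trim50 and Muc5ac, with Pearson's r of 0.988, 0.988 and 0.985.

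Kidney expressed the most claudins, 15 with a mean of at least 1 FPKM. Cldn2, the cation and water pore of the proximal tubule, ran from 143.8 to 211.7 FPKM (median 188.2), and Cldn10, which forms ion channels along the tubule, from 136.5 to 224.3 (median 146.6). Cldn8, a claudin of the distal nephron, had a mean of 38.8 ± 12.2 FPKM (SD, n = 6). Cldn16 and Cldn19, partners in magnesium and calcium reabsorption in the thick ascending limb, had means of 9.25 and 36.2 FPKM. Each kidney library exceeded every library of other tissues for Cldn2, Cldn8, Cldn12, Cldn16 and Cldn19. Cldn14, known as a blocker of the Cldn16 and Cldn19 channel, was at 7.35 to 10.96 FPKM in liver and at 0 to 0.16 in kidney. Of other genes, Sult1d1 was the most similar to Cldn2 over the tissues (r = 0.957).

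In brain, Cldn11, the tight junction protein of oligodendrocyte myelin, ran from 72.2 to 114.8 FPKM in hypothalamus and from 50.8 to 90.4 in cerebrum, and these ranges overlapped. Its most similar genes were Fam169a, Nap1l2 and Grm7 (r from 0.990 to 0.993), and it had an r of 0.914 with Gjc3, a connexin of myelinating glia. In kidney, Cldn11 was at 3.42 FPKM in estrus replicate 1 and 6.65 in diestrus replicate 2, and at 0.08 to 0.23 in the other 4 libraries. Spleen was the tissue of Cldn13, a claudin gene that mice have and humans lack. Its values were 21.2, 32.6 and 26.9 FPKM in estrus against 7.44, 37.8 and 9.76 for diestrus, and its next highest tissue mean was 0.352 in duodenum. Fcrl5, Prg3 and Hemgn were most similar to it, each with an r of 0.998.

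Cldn5, the main claudin of endothelial cells and of the blood-brain barrier, was the leading claudin of aorta, vein, BAT, WAT, heart and ovary. It was highest in vein (21.3 to 71.8 FPKM, median 55.3), followed by WAT (33.8 to 74.5), aorta (15.6 to 53.7) and ovary (21.9 to 40.04), and each of these ranges overlapped the next. Relative to the sum of 6 endothelial markers in the same library, Cldn5 stood at 41.8% to 66.6% in cerebrum and 38.3% to 61.8% in hypothalamus. In vein it stood at 6.76% to 16.8% and in aorta at 5.57% to 15.5%, so the brain ranges did not overlap those of the vessels. The highest single value outside the brain was 39.4%, in uterus estrus replicate 3. Hip1, Rnf144a and Ramp2 had the most similar levels to Cldn5 (r from 0.904 to 0.918). Cldn12 ran from a mean of 1.88 FPKM in spleen to 26.7 in kidney and was the leading claudin of muscle at 5.97. Cldn22 was highest in WAT (40.6 FPKM) and next in vein (16.1). Cldn1, a barrier claudin of skin, was highest in liver (14.9) and uterus (14.2), and Cldn34c1 in ovary (3.21).

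**Figure D2:**
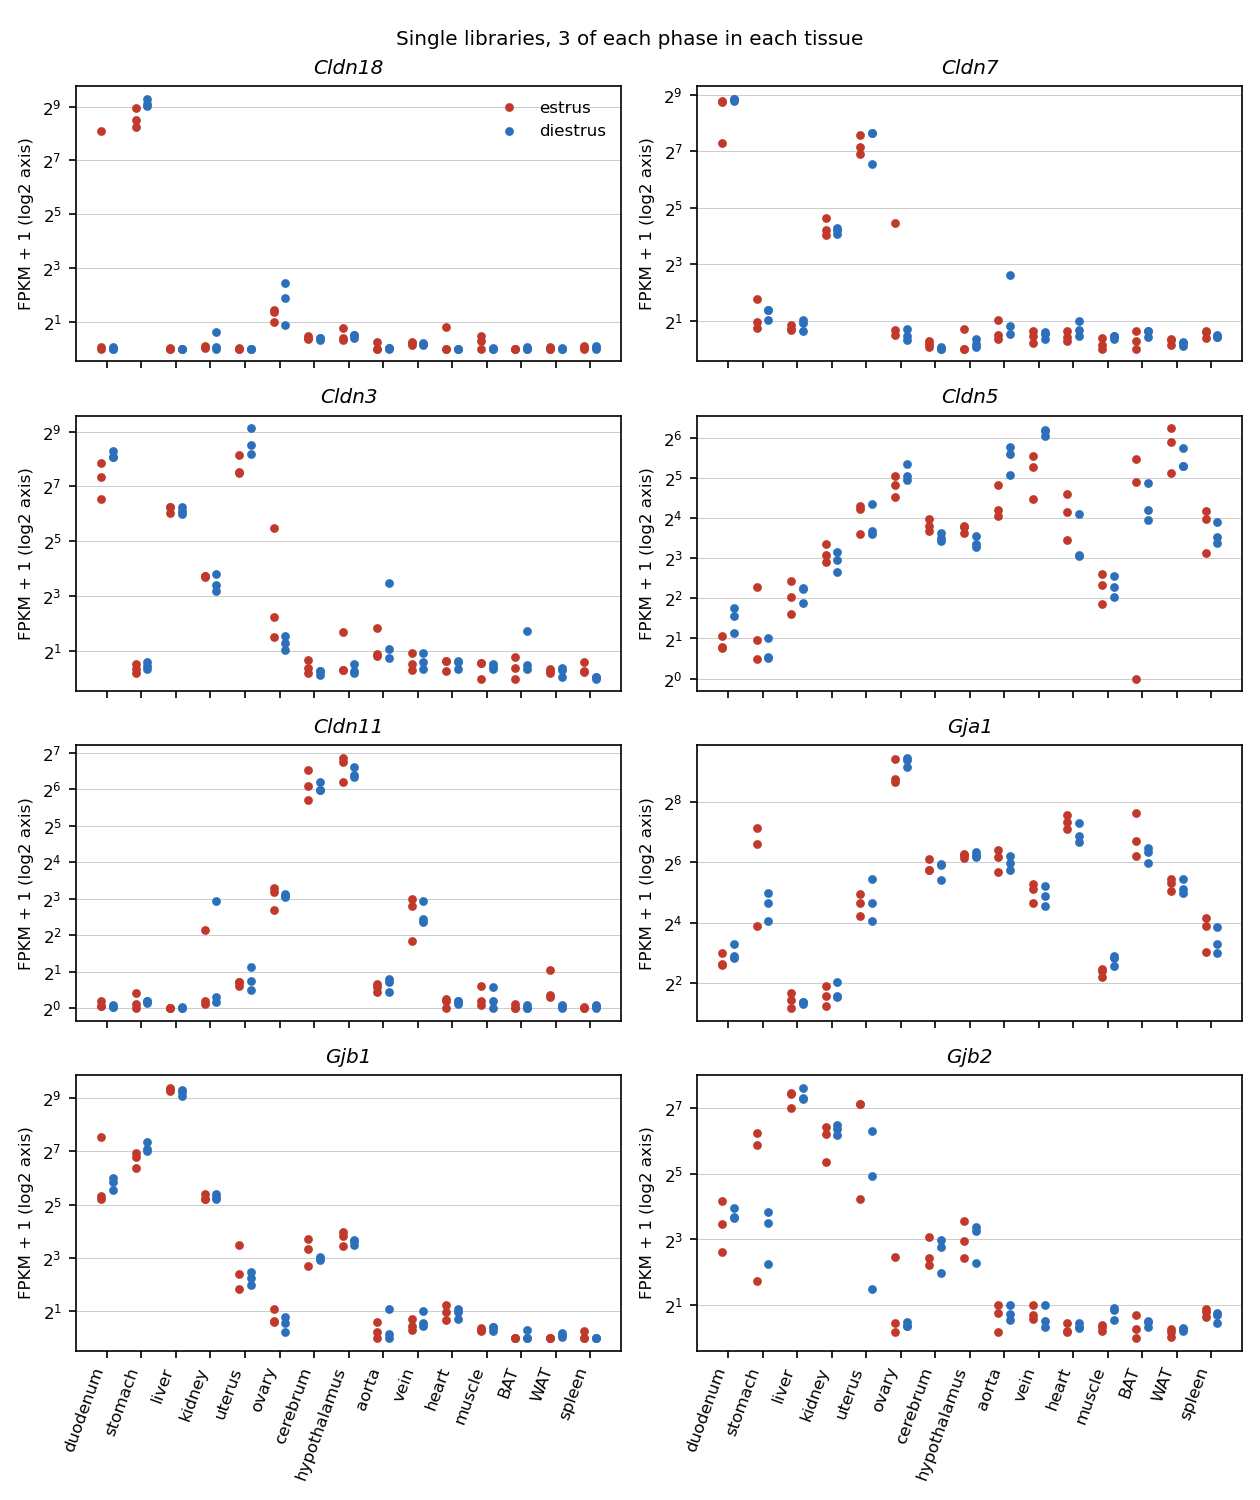
FPKM + 1 on a log2 axis for 8 members in each of the 90 libraries (x axis, tissues; red, 3 estrus libraries; blue, 3 diestrus libraries). Single libraries stand apart, among them duodenum estrus replicate 1 for Cldn18 and Gjb1 and BAT estrus replicate 3 for Cldn5, listed at 0.

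Among the alpha connexins, Gja1, the connexin of heart muscle, granulosa cells and astrocytes, was the leading connexin of 10 tissues. In ovary it ran from 405.9 to 709.9 FPKM (median 624.1), made up 93.6% of the connexin sum, and every ovary library exceeded every library of other tissues. Heart followed with 101.8 to 188.7 FPKM and BAT with 61.8 to 199.1, which overlapped, and liver was lowest with 1.22 to 2.18. The genes most similar to Gja1 were Ndc1, Mamld1 and P3h4 (r from 0.829 to 0.839). Gja4 and Gja5, connexins of vessel walls, both had their highest means in vein (20.5 and 9.45 FPKM), and Gja4 had an r of 0.823 with Cldn5. Gja4 ran from 11.94 to 33.7 FPKM in vein, 11.94 to 21.07 in ovary and 8.5 to 18.5 in aorta. Gja5 ran from 5.84 to 15.4 in vein and 4.89 to 11.1 in aorta. These ranges overlapped, and neither gene was called between aorta and vein. Gja3, known from the lens, was at 7.65 to 10.9 FPKM in heart and at a mean of 1.27 in uterus, its next tissue. Gja6 reached a mean of 1 FPKM in aorta alone, with 6.25 FPKM in estrus replicate 1 and 0.39 to 0.73 in the other 5 libraries.

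Among the beta connexins, Gjb1, the main connexin of hepatocytes, ran from 538.5 to 664.0 FPKM in liver (median 613.9), above stomach (81.8 to 163.2) and duodenum (35.8 to 183.6). Gjb2, its partner in hepatocytes, was likewise highest in liver (127.6 to 195.8), and it was the leading connexin of kidney (39.9 to 88.7) and uterus (1.79 to 139.7). The r of Gjb1 and Gjb2 was 0.884. Gjb6, a connexin of astrocytes, was highest in hypothalamus (56.4 to 67.6) and next in cerebrum (27.6 to 43.2). Gjb5, a connexin of skin and other stratified epithelia, was at 3.68, 0.03 and 11.8 FPKM in estrus stomach and 0.52, 0.35 and 0.03 in diestrus stomach, the highest value being that of the library with the highest squamous marker sum, and had a mean of 1.05 in uterus. Gjb2 and Gjb6, neighbours on the chromosome, had an r of 0.247. The genes most similar to the other leading members were Cldn4, Atp10b and Fcgbp for Cldn7 (r from 0.941 to 0.966), Enpp3 for Cldn3 (0.920), Srr for Cldn12 (0.844), Hsd17b2 for Gjb1 (0.920) and Ces1e for Gjb2 (0.902). All values of r describe 15 tissue means from the same libraries.

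Gjc1, a connexin of smooth muscle and of the conduction system of the heart, passed 1 FPKM in 14 tissues and was highest in heart (10.03 to 12.5 FPKM). Aorta overlapped it through estrus replicate 1, with 24.8 FPKM against 5.34 to 9.08 in the other 5 aorta libraries. Ovary, WAT, vein and uterus also had libraries within or above the heart range, reaching 10.34, 11.5, 14.3 and 17.4 FPKM. Gjc3 was highest in hypothalamus (27.6 FPKM) and next in cerebrum (20.01). Gjd2, the connexin of electrical synapses between neurons, was at 3.78 to 4.47 FPKM in hypothalamus. Gje1 had its highest mean in uterus, 9.6 FPKM, with a range of 4.38 to 21.3.

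To ask how the families differ between related tissues, 7 pairs were compared with limma on log2(FPKM + 1), 6 libraries against 6 with the phase as a covariate. Genes averaging 1 FPKM or more in the 12 libraries were tested, and a call required a log2 difference of 1 or more in size together with a Benjamini-Hochberg adjusted p no higher than 0.05 across all genes tested. On this scale the added 1 FPKM makes differences of weakly expressed genes smaller. A member that passed the filter only through the tissue where it is high had to differ, so counts of members are set beside those over all genes.

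**Figure D3:**
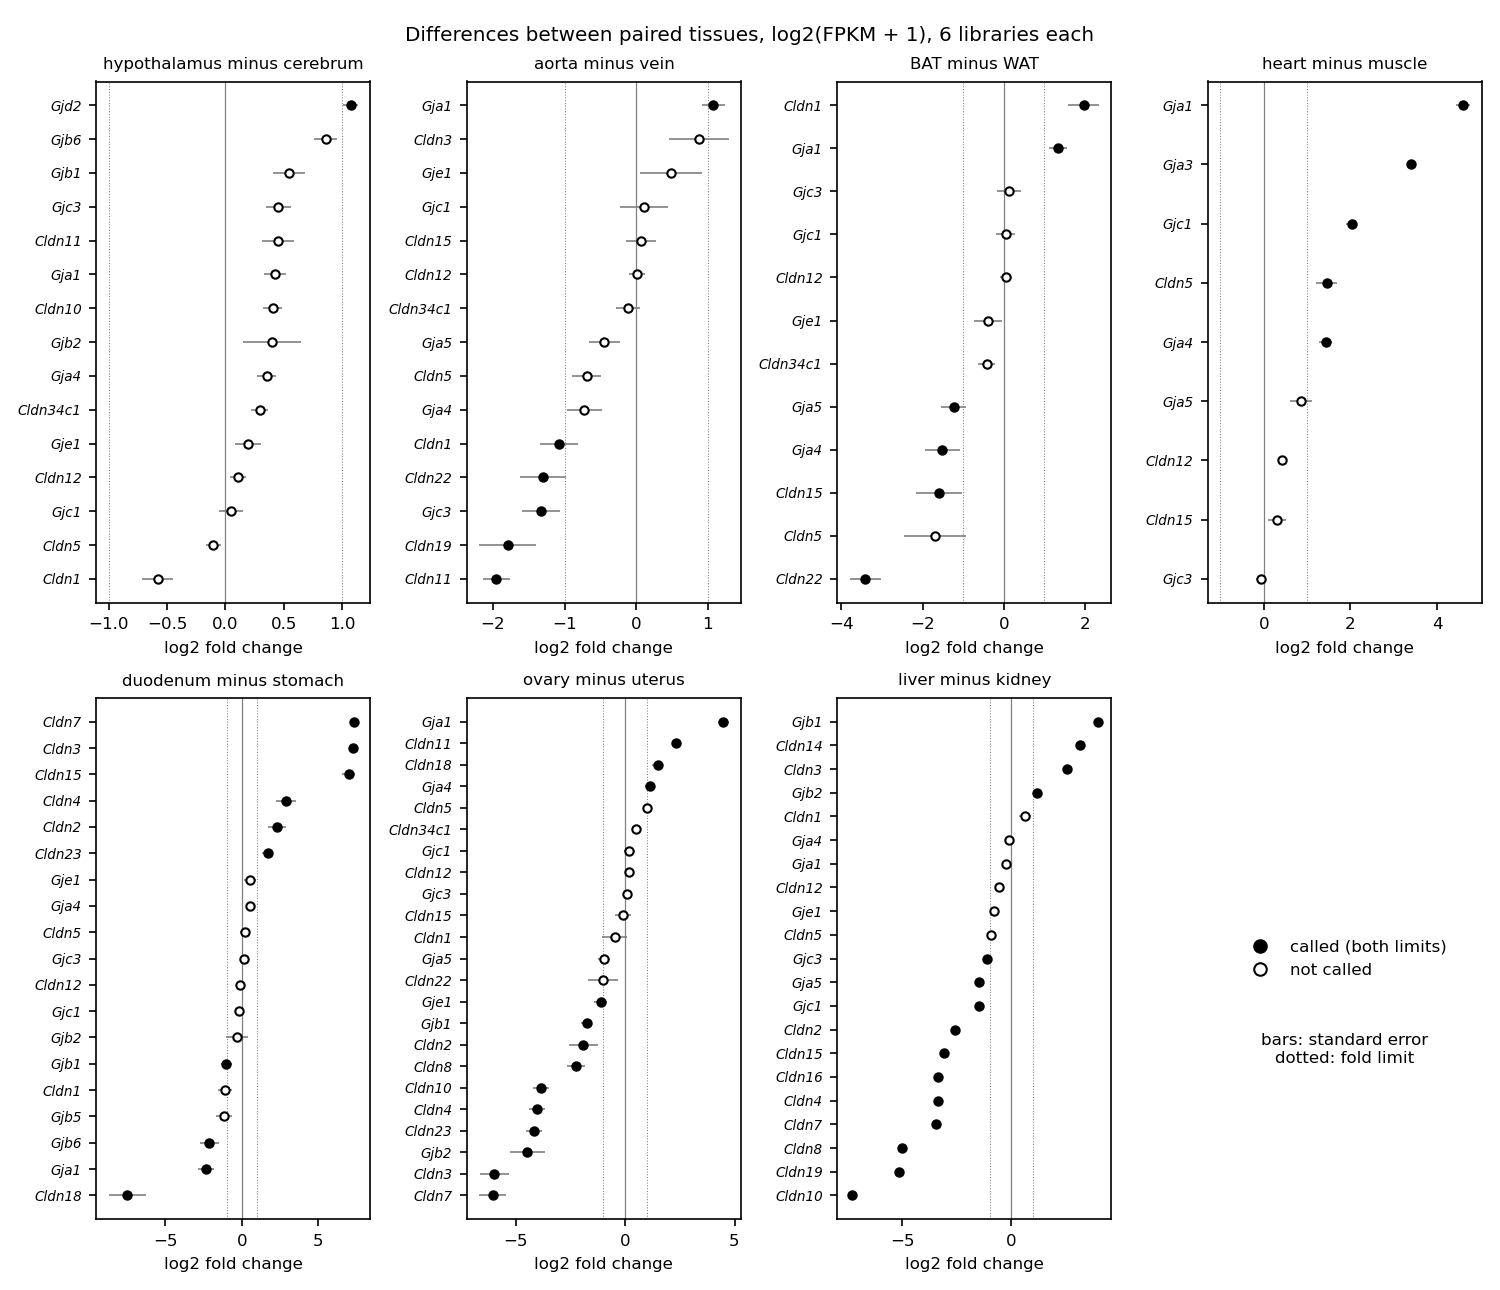
Difference of tested members in 7 tissue pairs (x axis, first tissue minus second on the log2(FPKM + 1) scale, 6 libraries each; bars, standard error; filled points, called at both limits; dotted lines, fold limit). The largest differences are those of Cldn18, Cldn7, Cldn3 and Cldn15 between duodenum and stomach and of Cldn10 between liver and kidney.

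Duodenum and stomach carried different claudins. Of 21 members tested, 6 were higher in duodenum and 4 in stomach, and of all genes 12.1% and 12% were (24.1% in all). The libraries of 7 members did not overlap, as for 27.4% of genes. Cldn7 was at 0.66 to 2.41 FPKM in stomach against 156.9 to 465.7 in duodenum, a log2 difference of 7.34 (standard error 0.26, adjusted p = 1.52e-09). Cldn3 was at 0.15 to 0.52 FPKM in stomach, a difference of 7.28 (standard error 0.21, adjusted p = 3.79e-10), and Cldn15 at 0.51 to 5.79, a difference of 6.99 (standard error 0.41, adjusted p = 1.05e-07). None of these overlapped between the tissues. Cldn4, Cldn2 and Cldn23 were also called higher in duodenum, by 2.89, 2.30 and 1.69, with overlapping libraries. Cldn18 differed by -7.48 (standard error 1.22, adjusted p = 0.000366), and by -8.85 without duodenum estrus replicate 1.

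The connexins called in this pair, Gja1 (-2.35), Gjb6 (-2.13) and Gjb1 (-1.02), were all higher in stomach. Gja1 was at 96.3, 13.7 and 141.8 FPKM in estrus stomach and 30.5, 23.9 and 15.5 in diestrus stomach, against 5.08 to 8.78 in duodenum. Its 2 highest values came from the libraries with the highest squamous marker sums. The same 2 libraries also had the highest smooth muscle marker sums. Those sums were 4663, 243.3 and 1665 FPKM in estrus stomach and 1247, 549.0 and 529.6 in diestrus stomach. Gjb6 ordered the 6 stomach libraries exactly as the squamous sum did, with Gjb6 at 20.5 FPKM in estrus replicate 3 and 0.2 in diestrus replicate 3. The part of squamous epithelium or smooth muscle in these levels was not tested.

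Between ovary and uterus, 4 of 25 members were higher in ovary and 11 in uterus, against 10.4% and 8.66% of all genes (19% in all). The libraries of 11 members did not overlap, as for 22.7% of genes. Among those higher in uterus were Cldn2, Cldn3, Cldn4, Cldn7, Cldn8, Cldn10, Cldn23, Gjb1, Gjb2 and Gje1. Cldn7 was at 91.7 to 200.9 FPKM in uterus, at 21.01 in ovary estrus replicate 3 and at 0.24 to 0.65 in the other 5 ovary libraries, a difference of -6.06 (standard error 0.60, adjusted p = 9.67e-06). Cldn3 differed by -5.97 (standard error 0.65, adjusted p = 2.05e-05), Cldn23 by -4.15 (standard error 0.36, adjusted p = 3.10e-06) and Cldn4 by -4.04 (standard error 0.37, adjusted p = 4.41e-06). Ovary estrus replicate 3 was the highest ovary library for Cldn2, Cldn3, Cldn4, Cldn7, Cldn8, Cldn10, Cldn23 and Gjb2, and its sum of 5 simple epithelium markers was 378.5 FPKM against 32.1 to 48.5 in the other 5. Without it Cldn7 and Cldn3 differed by -6.71 and -6.65, Gja5 and Cldn5 were also among those called, and Gje1 was not.

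Higher in ovary were Gja1, Cldn11, Cldn18 and Gja4. Gja1 was at 15.5 to 43.1 FPKM in uterus against 405.9 to 709.9 in ovary, a difference of 4.49 (standard error 0.23, adjusted p = 3.43e-08). Cldn11 was at 5.45 to 8.8 FPKM in ovary and 0.42 to 1.18 in uterus (2.33), and Cldn18 at 0.87 to 4.52 and 0 to 0.02 (adjusted p = 0.000504 from limma). These 3 did not overlap between the tissues, and Gja4 did (1.12).

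Liver and kidney differed in 15 of 21 members, 4 higher in liver and 11 in kidney, against 8.28% and 35.8% of all genes (44.1% in all). The libraries of 18 members did not overlap, as for 78.7% of genes. The median difference of all genes was -0.74, so levels as deposited ran lower in liver in general. After quantile normalization, which removes that shift, 5 members were higher in liver and 8 in kidney, and the share of called genes that were higher in liver went from 18.8% to 45.3%. Higher in liver both ways were Gjb1 (3.96, adjusted p = 1.27e-15), Cldn14 (3.14), Cldn3 (2.54) and Gjb2 (1.18, adjusted p = 1.06e-05). Cldn3 was at 62.5 to 74.9 FPKM in liver and 8.15 to 12.9 in kidney, without overlap.

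Higher in kidney, all with libraries that did not overlap, were Cldn10, Cldn19 (-5.16), Cldn8 (-5.04), Cldn7 (-3.43), Cldn4, Cldn16, Cldn15, Cldn2, Gjc1, Gja5 and Gjc3. Cldn10 was at 0 to 0.07 FPKM in the 6 liver libraries and 136.5 to 224.3 in kidney, a difference of -7.29 (standard error 0.12, adjusted p = 2.03e-15). Cldn16 was listed at 0 in all 6 liver libraries. The leading members differed between the organs, with Gjb1 and Cldn3 in liver and Gjb2 and Cldn2 in kidney.

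Heart exceeded muscle in 5 of 9 members and muscle exceeded heart in 0, against 22.7% and 5.56% of all genes (28.3% in all). The libraries of 7 members did not overlap, as for 70.2% of genes. Gja1 was at 101.8 to 188.7 FPKM in heart and 3.56 to 6.49 in muscle, a difference of 4.59 (standard error 0.16, adjusted p = 1.73e-11). Gja3 was at 0 to 0.05 FPKM in muscle (3.39), and Gjc1 at 1.36 to 3.3 (2.02), both without overlap. Cldn5 (1.45) and Gja4 (1.43), genes of vessels, were called as deposited and not after quantile normalization, where Cldn5 differed by 0.95. The median of all genes was 0.46 before it, and the share of calls higher in heart went from 80.3% to 53.3%.

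Between aorta and vein, Gja1 was the single member higher in aorta, and Cldn1, Cldn11, Cldn19, Cldn22 and Gjc3 were higher in vein, among 15 tested and against 1.84% and 9.12% of all genes (11% in all). The libraries of 3 members did not overlap, as for 14.6% of genes. Gja1 was at 50.02 to 84.7 FPKM in aorta and 22.5 to 38.4 in vein, a difference of 1.08 (standard error 0.17, adjusted p = 0.000427). Cldn11 was at 0.36 to 0.74 in aorta and 2.6 to 6.97 in vein, a difference of -1.95 (standard error 0.19, adjusted p = 9.69e-06), and Gjc3 differed by -1.33 (standard error 0.27, adjusted p = 0.00272). Cldn19, known from Schwann cells as well as kidney, was at 3.19 to 7.33 FPKM in vein, at 5.34 in aorta diestrus replicate 3 and at 0.1 to 1.27 in the other 5 aorta libraries. It differed by -1.79, and by -2.17 without that library.

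The vein pieces also held markers of nerve tissue. Schwann cell markers, 4 of 4 with a mean of at least 1 FPKM in vein and 3 of 4 in aorta, summed to 315.8 to 672.0 FPKM in vein, 364.7 in aorta diestrus replicate 3 and 70.7 to 177.9 in the other 5 aorta libraries. Oligodendrocyte markers (4 of 6 and 3 of 6) summed to 138.8 to 383.5 in vein and 15.4 to 153.8 in aorta, and neuron markers (3 of 4 and 1 of 4) to 339.9 to 733.7 and 0.39 to 6.73. Their part in the differences of Cldn11, Cldn19 and Gjc3 was not tested. Cardiomyocyte markers summed to 236.1 to 2670 FPKM in aorta and 4.01 to 13.1 in vein, and their part in the level of Gja1 was not tested either. Quantile normalization moved the share of calls higher in aorta from 16.8% to 29.4%, with 2 members higher in aorta and 4 in vein.

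BAT and WAT differed in 6 of 12 members, Cldn1 and Gja1 being higher in BAT and Cldn22, Cldn15, Gja4 and Gja5 in WAT, against 7.07% and 15.1% of all genes (22.2% in all). The libraries of 5 members did not overlap, as for 36.3% of genes. Cldn22 was at 24.97 to 62.2 FPKM in WAT and 0 to 5.06 in BAT, a difference of -3.42 (standard error 0.38, adjusted p = 1.89e-05). Cldn1 was at 1.62 to 15.9 FPKM in BAT and 0.04 to 0.56 in WAT, a difference of 1.96 (standard error 0.38, adjusted p = 0.0013). Gja1 was at 61.8 to 199.1 FPKM in BAT and 30.3 to 42.98 in WAT (1.34), without overlap. When the BAT library listed at 0 for 47 members was left out, Cldn22, Cldn1, Gja1, Gja4 and Gja5 were still called, at -3.07, 2.00, 1.46, -1.16 and -1.02, and Cldn15 was not, at -0.98 in place of -1.61. After quantile normalization Gja5 differed by -0.58 and was not called, and the share of calls higher in BAT went from 31.9% to 50.4%.

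Hypothalamus and cerebrum had the fewest members called of the 7 pairs. Gjd2 alone of 16 was called, higher in hypothalamus, against 4.73% of all genes, and 0 members were called higher in cerebrum, against 4.25% (8.98% in all). The libraries of 4 members did not overlap, as for 50.2% of genes. Gjd2 was at 3.78 to 4.47 FPKM in hypothalamus and 1.17 to 1.74 in cerebrum, a difference of 1.07 (standard error 0.06, adjusted p = 1.79e-08). After quantile normalization it was 0.85, under the fold limit, and the share of calls higher in hypothalamus went from 52.6% to 39.3%.

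To ask whether the phase changes these families, estrus was compared with diestrus within each tissue, 3 libraries against 3, by limma with the same limits. None of the 233 combinations of a member and a tissue that passed the filter was called, and 29 had an unadjusted p under 0.05. Over all genes, 2 of 185469 combinations were called, or 0.00108% (1 each in muscle and spleen, 0.00936% and 0.00798% of the genes there), and 14546 had an unadjusted p under 0.05. With 3 values against 3, an exact two-sided permutation test of a single gene cannot go under p = 0.1. In 33 of the combinations of members, or 14.2%, both sets of 3 values were apart, 9 higher and 24 lower in estrus. Over all genes this share was 15% in either direction. Without BAT it was 28 of 222 combinations of members and 14% over all genes. Directions over all genes were not counted, so the split of 9 and 24 has no such share beside it. The median difference of all genes ran from -0.16 in duodenum to 0.06 in WAT.

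**Figure D4:**
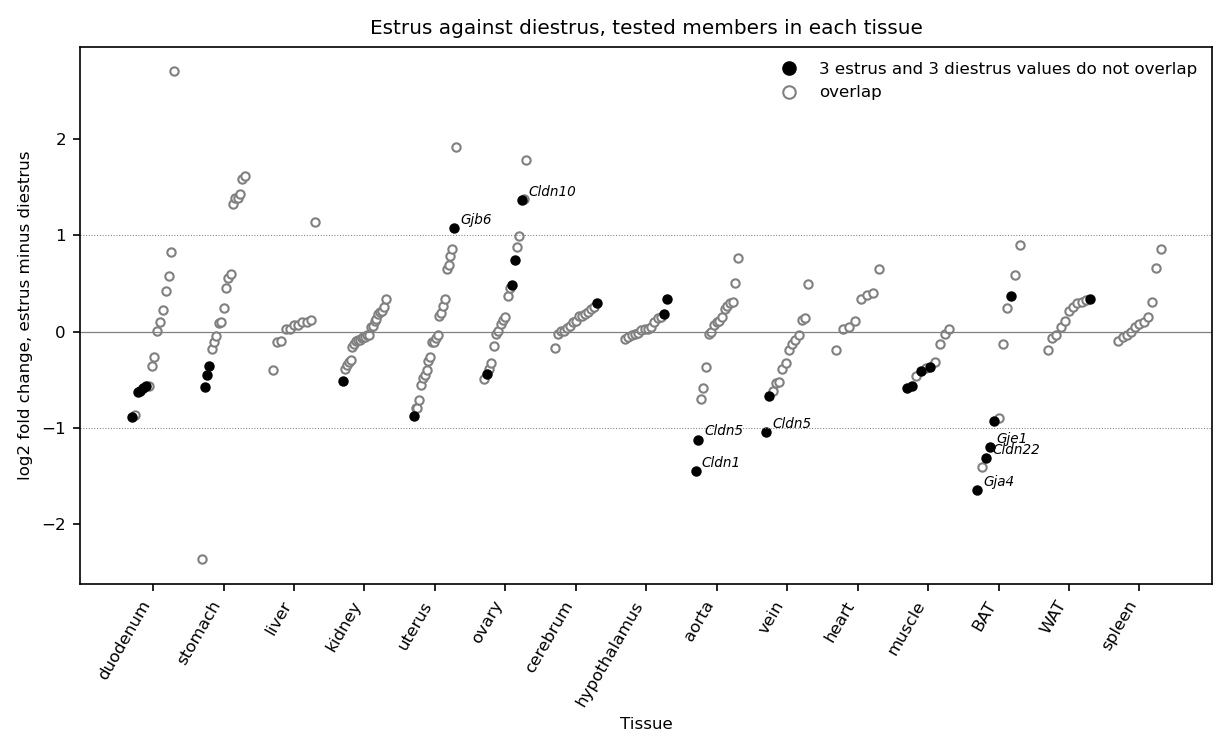
Log2 difference (y axis, estrus minus diestrus) of tested members in each tissue (x axis). Filled points mark combinations whose values do not overlap between the phases, names mark those that also pass a difference of 1 in size, and dotted lines mark that size.

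In 9 of the 33 combinations, of 8 genes, the log2 difference also reached 1 in size, and none passed the adjusted p. In vein, where 2 of 14 members and 18.2% of genes were apart, Cldn5 was at 45.6, 21.3 and 37.4 FPKM in estrus against 71.8, 71.5 and 65.05 for diestrus, a difference of -1.04 (standard error 0.26, adjusted p = 0.412). In aorta, with 2 of 17 members and 11.9% of genes apart, it was at 27.5, 17.4 and 15.6 against 53.7, 32.9 and 47.3, a difference of -1.12 (standard error 0.28, adjusted p = 0.933). All diestrus values of both vessels exceeded the estrus values of the same vessel. The 6 endothelial markers, all with a mean of at least 1 FPKM, summed to 201.8, 287.5 and 280.8 FPKM in aorta estrus against 347.0, 336.7 and 345.8 for diestrus, also without overlap, and their part in the difference was not tested. In vein these sums overlapped, with 426.0, 315.0 and 391.8 against 427.2, 534.9 and 402.9. Relative to the endothelial sum, Cldn5 overlapped between the phases in aorta (13.6%, 6.04% and 5.57% against 15.5%, 9.78% and 13.7%) and did not in vein (10.7%, 6.76% and 9.54% against 16.8%, 13.4% and 16.1%).

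In both brain regions Cldn5 lay the other way, with smaller differences. In hypothalamus, where 2 of 15 members and 19.6% of genes were apart, it was at 12.7, 11.3 and 13.03 FPKM in estrus against 9.27, 10.8 and 8.67 for diestrus, a difference of 0.33 (standard error 0.09, adjusted p = 0.247). In cerebrum, with 1 of 16 members and 7.8% of genes apart, it was at 14.8, 12.9 and 11.8 against 10.4, 11.3 and 9.86, a difference of 0.30. Relative to the endothelial sum, Cldn5 overlapped between the phases in hypothalamus (48.6%, 46.9% and 61.8% against 46.5%, 52.3% and 38.3%) and did not in cerebrum (66.6%, 58.5% and 54.9% against 48%, 52.4% and 41.8%). Whether the phase difference of Cldn5 varied between the 15 tissues was tested as an interaction over all 90 libraries, which takes them as independent although tissues share mice, and it was not called (F = 1.16, adjusted p = 0.628 from limma). Of the 28 members in that test, 1, Cldn12, was called, where 3.88% of all genes were.

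Cldn1 in aorta was at 0.44, 1.16 and 1.83 FPKM in estrus against 6.69, 2.21 and 6.32 for diestrus, a difference of -1.45 (standard error 0.43, adjusted p = 0.933). Simple epithelium markers summed to 83.4 FPKM in aorta diestrus replicate 3, against 6.29 to 14.8 in the other 5 aorta libraries. Diestrus replicate 1, with the highest Cldn1 value, had a sum of 7.27. The part of these markers was not tested. In BAT, 5 of 11 members and 30.1% of genes were apart, among them Gja4, Cldn22 and Gje1, for which estrus replicate 3 was listed at 0. Gja4 was at 1.99, 2.9 and 0 FPKM in estrus against 6.7, 4.98 and 6.74, a difference of -1.65, and of -1.05 without that library (adjusted p = 0.0511). Cldn22 went from -1.32 to -0.70 and Gje1 from -1.20 to -0.91 when it was left out. The endothelial sum in BAT was 199.7, 237.4 and 186.1 FPKM in estrus against 287.5, 301.0 and 344.1 for diestrus, also without overlap, and its part in the difference of Gja4 was not tested.

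In duodenum, 6 of 17 members, among them Cldn3, Cldn5, Cldn7, Cldn12 and Cldn23, had every estrus value under every diestrus value, and 26.6% of genes were apart there in either direction. The median difference of all genes in duodenum was -0.16. Cldn3 was at 93.2, 160.1 and 230.2 FPKM in estrus against 309.9, 266.9 and 268.2 for diestrus, a difference of -0.89 (standard error 0.33, adjusted p = 0.368). Estrus replicate 1, with the gastric markers, was the lowest estrus library for Cldn3, Cldn7 (156.9, 422.2 and 437.4 FPKM) and Cldn15 (103.5, 330.7 and 369.2) and the highest for Gjb1 (183.6, 39.2 and 35.8). Without it Cldn3 and Cldn7 differed by -0.55 and -0.08, in place of -0.89 and -0.56. Cldn5 was at 0.73, 0.71 and 1.08 FPKM against 2.41, 1.93 and 1.2, and the endothelial sum at 20.02, 15.3 and 20.4 against 24.5, 31.9 and 23.4. Both were lower in each estrus library, and the part of the sum was not tested.

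**Figure D5:**
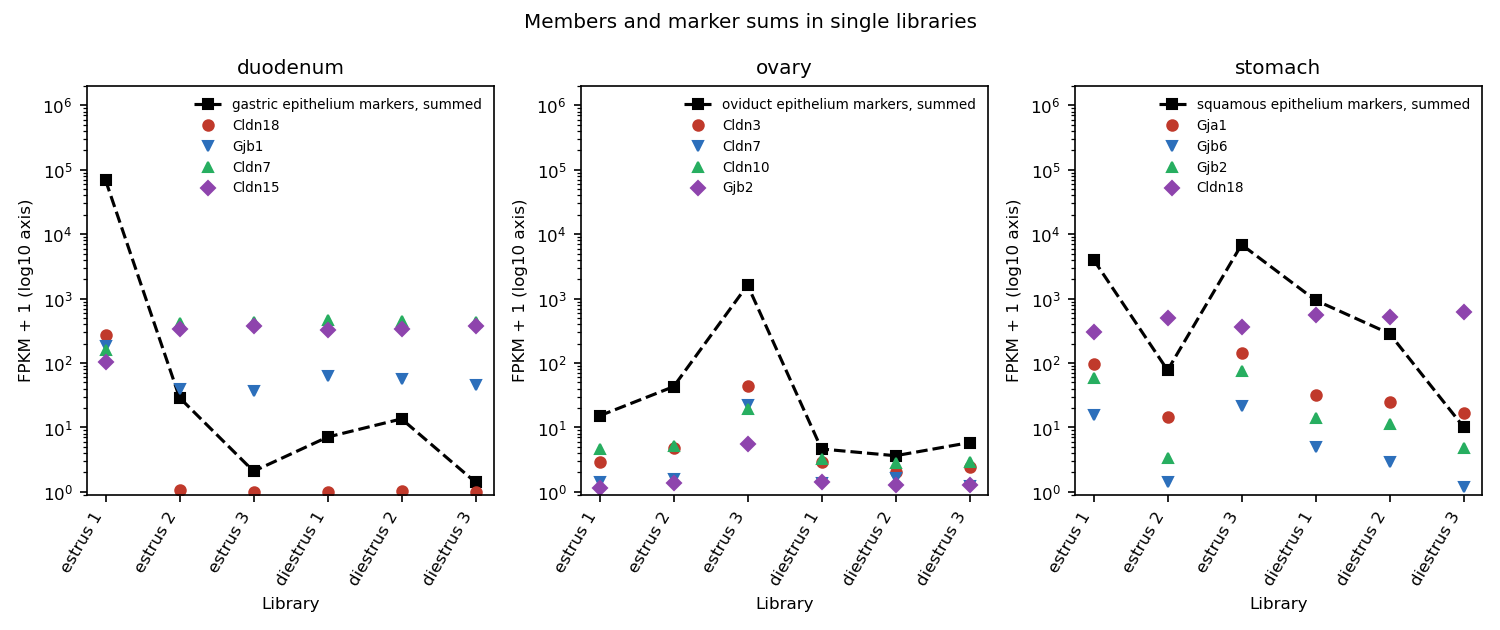
FPKM + 1 on a log10 axis in the 6 libraries (x axis) of duodenum, ovary and stomach, for 4 members each and, as squares joined by a dashed line, for the summed markers of gastric, oviduct and squamous epithelium. Cldn18 in duodenum, Cldn3 and Cldn7 in ovary and Gja1, Gjb2 and Gjb6 in stomach are highest in the library with the highest marker sum.

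In ovary, 4 of 20 members and 13.7% of genes were apart. Cldn10 was at 3.62, 4.13 and 18.4 FPKM in estrus against 2.25, 1.8 and 1.95 for diestrus, a difference of 1.37 (standard error 0.52, adjusted p = 0.828). Its highest value came from the library with oviduct markers, and without it the difference was 0.70. Gja1, with 441.1, 685.1 and 405.9 FPKM against 676.2, 709.9 and 571.9, overlapped between the phases. In uterus, 2 of 27 members and 7.91% of genes were apart. Gjb6 was at 2.87, 2.01 and 2.62 FPKM in estrus against 1.65, 0.53 and 0.1, a difference of 1.08 (standard error 0.42, adjusted p = 0.897), and Cldn3 lay the other way, at 183.5, 180.2 and 283.5 against 291.2, 555.5 and 360.7 (-0.88). Gjb2, with 137.9, 139.7 and 17.6 against 78.7, 29.5 and 1.79, overlapped.

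In muscle, 4 of 10 members, the connexins Gjc1, Gja4, Gja1 and Gja5, had every estrus value under every diestrus value, and 26.2% of genes were apart in either direction. The median difference of all genes in muscle was -0.08. Gjc1 was at 1.79, 1.36 and 1.38 FPKM in estrus against 2.72, 2.31 and 3.3 for diestrus, a difference of -0.59 (standard error 0.13, adjusted p = 0.101). The endothelial sum there was 92.4, 74.6 and 60.1 against 97.6, 102.5 and 100.8, also without overlap, and its part was not tested. In stomach, Cldn18, Gjb1 and Cldn12, 3 of 21 members, were lower in each estrus library, with differences of -0.57, -0.45 and -0.35, and 13.7% of genes were apart. The 6 gastric epithelium markers in stomach summed to 32410, 45350 and 45640 FPKM in estrus against 56170, 57930 and 56020 for diestrus, also without overlap. Their part in these differences was not tested. In kidney 1 of 24 members (Gjb6) and 7.98% of genes were apart, and in WAT 1 of 11 (Gjc3) and 12%. No member was apart in heart (11.7% of genes), liver (11.3%) or spleen (8.78%).

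When all 90 libraries shared one estimate of the spread and were again taken as independent, 12 of 420 combinations of members passed both limits, against 1.14% over all genes. Among those lower in estrus were Gje1, Gja4 and Cldn15 in BAT and Cldn2 in stomach, and among those higher were Cldn18 in duodenum, Cldn10 in ovary, Gja1 and Gjb6 in stomach and Gjb6 and Gjb2 in uterus. Cldn2 in stomach was at 2.7, 6.18 and 0.4 FPKM in estrus against 3.6, 35.4 and 29.4 for diestrus, which overlapped. Cldn15 in BAT was at 15.5, 8.98 and 0 FPKM in estrus against 14.6, 12.1 and 14.2 for diestrus, which overlapped too. In the fit of BAT alone its difference went from -1.41 to -0.18 without BAT estrus replicate 3, the library listed at 0. Cldn18 in duodenum rested on estrus replicate 1, and Gjb6 in stomach had the library order of the squamous marker sum.

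Genes that work with these families were described from lists of 29 tight junction partners, of which 28 were listed, and 11 gap junction partners. None of either list was called between the phases in any tissue. Between ovary and uterus, 14 of the 27 tight junction partners tested were higher in uterus and 0 in ovary, against 8.66% and 10.4% of all genes, among them Cdh1 (-4.99), Tjp3 (-4.39) and Ocln (-2.40), which encode E-cadherin, a scaffold of the junction and occludin. Between liver and kidney, 14 of 27 were higher in kidney and 1, Lsr (2.23), in liver, against 35.8% and 8.28% of all genes, whose median difference was -0.74. Heart exceeded muscle in 11 of 17 tight junction partners and in 5 of 9 gap junction partners, with Dsp (7.03), Cdh2 (6.22) and Pkp2 (5.22), genes of the intercalated disc, among them. Muscle exceeded heart in 1 of each list, Amotl1 (-2.00) and Panx1 (-1.31). Of all genes 22.7% were higher in heart and 5.56% in muscle, with a median difference of 0.46. Between duodenum and stomach, 2 of 25 tight junction partners were higher in duodenum and 3 in stomach, against 12.1% and 12% of all genes.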

How the data were processed

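RNA of 15 tissues from female mice in estrus or diestrus was sequenced by the authors (TruSeq libraries without strand, BGISEQ-500), with 3 libraries per tissue and phase. Per the study's methods and submitters' processing notes, reads were filtered with SOAPnuke, aligned with Bowtie2 2.2.5 to GRCm38.p5 and quantified with RSEM 1.2.8, and the authors deposited one FPKM value per gene and library. The study states a typical read number per sample, but the table gives none for single libraries, so the depth of each library is unknown here, no count test was run and single values have no interval.

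Of 20414 genes, 20265 were matched to a symbol by Entrez ID and 149 were not. Members were the symbols of both families; 55 match in the RefSeq table and 52 are listed. Counts cover all of them, but a few genes are not reported here by name or in the figures. Members, tissue pairs and gene lists were chosen with earlier results of these data known. Groups came from the sample labels, 0 columns were left unassigned, and 0 of 4005 pairs of libraries held identical values. Per the study, each phase had 3 mice, from which all 15 tissues were dissected. The labels tie no library to a mouse, so the tests between tissues took libraries as independent, and p-values measure the spread between libraries.

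Values were tested as log2(FPKM + 1) with limma 3.58.1 (R 4.3.3, intensity trend) on every gene averaging 1 FPKM or more, a procedure checked on simulated data. Named genes were the leading claudin and connexin of each tissue, members apart between the phases with a log2 difference of at least 1, and up to 4 called members per direction and pair, each with the most similar genes. Alternatives were a pseudocount of 0.1, other filters, quantile normalization, no fold limit, no trend, one fit of 90 libraries, a replicate block and leaving out libraries. Libraries of the same replicate number in liver and kidney had correlations of deviations of 0.111 to 0.276, all 6 over 0.1. Between the phases, in no tissue were all such correlations over 0.1. Libraries of different numbers were not compared, so these correlations cannot show whether the numbers pair the libraries. Tables were made with Python 3.11.15, pandas 2.3.3 and numpy 2.4.6.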

Additional observations from a re-analysis of the deposited data

Results flagged for a closer look

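The phase difference of Cldn12 differed between the 15 tissues by the interaction test of limma over all 90 libraries (F = 3.15, adjusted p = 0.0322). It was 1 of 28 members, where 3.88% of all genes were called. The test takes libraries as independent although tissues share mice. Estrus and diestrus values did not overlap in BAT (10.03, 8.19 and 7.44 FPKM against 5.56, 7.01 and 6.58, a log2 difference of 0.37), duodenum (6.01, 5.58 and 7.40 against 12.17, 9.81 and 9.11, a difference of -0.63) or stomach (7.23, 8.62 and 6.81 against 8.91, 10.45 and 10.33, a difference of -0.35). Within no tissue was Cldn12 called. Without BAT, and after quantile normalization, 0 of 28 members passed the interaction test, and the BAT library with most genes at 0 is one of the 3 estrus values there. Leaving out replicate number 1, 2 or 3 in all tissues gave 1, 4 and 0 members called.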

How the results depend on the processing

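Of 784 values of 43 named differences under the alternatives, 769 kept their direction and side of the limits, 10 were no longer past them, 5 newly passed them and 0 reversed. The named differences between tissues were picked as the largest called ones without overlap. Those between the phases were not called to begin with, so remaining uncalled counted as kept. That choice favours a high number kept, which does not measure how other differences depend on the processing. Between the phases, 0 combinations of members were called per tissue and 12 in one fit of all 90 libraries. Between hypothalamus and cerebrum, where 1 member was called, a pseudocount of 0.1 gave 2, a mean of at least 5 FPKM, quantile normalization and one fit of all libraries gave 0 each, and no fold limit gave 11. A mean of at least 5 FPKM, which tests fewer genes, left 3 members between aorta and vein, 9 between ovary and uterus and 9 between liver and kidney. Quantile normalization left 3 between heart and muscle. In the interaction test, where 1 member was called, no filter gave 3, quantile normalization and leaving out BAT 0 each, and leaving out BAT estrus replicate 3, an alternative chosen after seeing the data, 2. The causes were not tested.

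Leaving out 1 library at a time gave 0 calls between the phases, 1 for hypothalamus and cerebrum, 5 to 6 for aorta and vein, 5 to 7 for BAT and WAT, 5 for heart and muscle, 9 to 13 for duodenum and stomach, 14 to 16 for ovary and uterus and 15 to 16 for liver and kidney, and leaving out 1 replicate number 0 to 4 for the interaction. Cldn15 between BAT and WAT lost its call without any of 6 libraries, at -0.98 without BAT estrus replicate 3 and at -1.47 to -1.65 without the others.

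With the replicate number as a block, 15 members were called between liver and kidney. No source says that a number stands for one mouse across tissues, and the phases were of different mice. The block gave 0 calls between the phases. For the other tissue pairs it gave 1, 6, 7, 5, 9 and 15, in the order of hypothalamus and cerebrum, aorta and vein, BAT and WAT, heart and muscle, duodenum and stomach, and ovary and uterus. The table gives no depth for single libraries, so no limit is given for a value at 0.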
